A study of Mus musculus with 17 samples.

Results

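The 9 genes described here are long noncoding RNAs measured in mouse macrophages: Malat1 and Neat1, which are nuclear RNAs, and 7 host genes of small nucleolar RNAs (snoRNAs), Gas5, Snhg1, Snhg3, Snhg5, Snhg6, Snhg8 and Snhg12. They were taken by symbol from a table of 24453 gene models, and all 9 of the 9 symbols were found. Values were RPKM, reads scaled to the exon length of each model and to the mapped reads of the library, in 13 RNA-seq libraries of polyadenylated RNA. The study asked how the AP-1 transcription factors ATF3, Jun and JunD differ in function in macrophages although they recognize a common DNA motif.

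The libraries came from 2 kinds of macrophage, both labelled male. Immortalized bone marrow-derived macrophages (iBMDMs) were C57Bl/6EiJ cells carrying mutant Braf and Myc. They expressed Cas9, received a lentivirus with a pair of guides, and were sorted as an infected population. The 4 iBMDM groups had 2 libraries each, labelled Scramble (control guides, named zsGreen in the sample titles), Atf3KO, JunKO and JunDKO, and all were labelled vehicle. Thioglycollate-elicited macrophages (TGEMs), primary cells flushed from the peritoneum of 8-week mice 3 days after injection, received vehicle (PBS) or 100 ng/mL Kdo2 lipid A (KLA), a TLR4 agonist, for 1 h. There was 1 library of each treatment for TGEMs of C57Bl/6EiJ mice, while TGEMs of Balb/cJ mice had 1 for vehicle and 2 for KLA. The sources used here do not say whether libraries of a group came from separate cultures or animals, so p-values measure only the spread between these libraries. In bulk RNA, fewer cells of a type and less RNA per cell cannot be told apart.

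Depth ran from 1553296 to 18444429 mapped reads. Reads fell on 10425 and 10631 gene models in the Atf3KO libraries, against 11884 to 12533 in the other 6 iBMDM libraries, although they were deeper than all of those but JunDKO replicate 2. Guide-directed mutations need not lower an RNA, and the targeted RNAs did not check the knockout labels, which the study assessed at the protein level by western blotting (not analysed here): Atf3 RNA reached 154 and 169 RPKM under the Atf3KO label and 80.7 and 77.4 under Scramble, Jun 26.2 and 20.5 in JunKO against 17.6 and 18.5, and Jund 6.94 and 6.07 in JunDKO against 9.19 and 8.33. TGEM libraries, although labelled male, held 863 to 8676 reads of Xist, and iBMDM libraries 0 to 3. All 7 macrophage markers were at 1 RPKM or more in every library. In TGEMs the 4 B cell markers summed to 10.1 to 23.9 RPKM and the 4 mesothelial or fibroblast markers to 15.7 to 30.4 RPKM, against at most 0.488 and 0.106 RPKM in iBMDMs. The 3 mast cell markers summed to 1.78 to 13.2 RPKM in TGEMs and to at most 0.264 in iBMDMs, while the 6 neutrophil markers reached 41.1 RPKM in iBMDMs and 13.2 in TGEMs. The chi-square of replicate reads over its degrees of freedom was 27.25 for Atf3KO, against 3.54 to 3.78 for the other iBMDM pairs. The Balb/cJ KLA pair gave 75.21. This measure grows with depth, and each other iBMDM pair held a library of fewer reads than either Atf3KO library. The values are therefore not on the same scale.

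As background, Malat1 is retained in nuclear speckles, and Neat1 is the scaffold of paraspeckles, bodies built with proteins such as NONO and SFPQ. Small nucleolar RNAs guide chemical modification of ribosomal and spliceosomal RNA, and in mammals most are cut from introns of host genes. Many hosts carry a 5′ terminal oligopyrimidine tract, a run of C and T at the start that is typical of genes of the translation machinery. Spliced RNAs of noncoding hosts such as Gas5 are commonly degraded by nonsense-mediated decay when translated. AP-1 and ATF dimers bind the sequences called TRE and CRE.

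The starts of the genes are shown because they differ in these features. RefSeq promoter sequences (GRCm38.p6, the build of the mm10 coordinates) were matched for 7 of the 9 genes, and Neat1 and Snhg6 had no entry. Each line gives 15 bases before and 30 bases from the annotated start in the direction of transcription, and capitals mark the unbroken run of C or T from the first transcribed base.
Gas5: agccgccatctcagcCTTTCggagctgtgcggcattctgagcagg
Snhg8: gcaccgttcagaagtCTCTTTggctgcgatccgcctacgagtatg
Snhg12: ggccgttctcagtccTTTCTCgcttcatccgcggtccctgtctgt
Snhg1: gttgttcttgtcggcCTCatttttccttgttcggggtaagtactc
Snhg5: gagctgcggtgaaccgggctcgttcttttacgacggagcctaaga
Snhg3: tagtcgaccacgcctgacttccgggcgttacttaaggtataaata
Malat1: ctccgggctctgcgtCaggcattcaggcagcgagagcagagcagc

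These windows lie at chr1:161035151-161035195 (plus strand) for Gas5, chr3:123508307-123508351 (minus) for Snhg8, chr4:132308663-132308707 (plus) for Snhg12, chr19:8723472-8723516 (plus) for Snhg1, chr9:88522868-88522912 (minus) for Snhg5, chr4:132353657-132353701 (minus) for Snhg3 and chr19:5802643-5802687 (minus) for Malat1. The run was 5 bases in Gas5, 6 in Snhg8 and 6 in Snhg12. It was 3 bases in Snhg1, 1 in Malat1 and 0 in Snhg3 and Snhg5, where runs of pyrimidines lay a few bases further on. Of 32851 promoters, 4.44% began with at least 5 such bases. Gas5 had a second annotated start, with a run of 0, which lay upstream of the deposited model and is not shown.

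Motifs were searched from 250 bases before to 50 bases after each start, with both strands covered: TGAGTCA and TGACTCA for the TRE, TGACGTCA for the CRE and CACGTG for the E-box. Among the 8 promoter sequences of the 7 genes, the single match was a CRE in Gas5. It lay at chr1:161035120-161035127 (plus strand), 46 bases before the start. A CRE occurred in 1.79% of all promoters, a TRE in 5.20% and an E-box in 7.15%. The Gas5 promoter (chr1:161034916-161035215, plus strand, mm10) is printed whole because it held the single match, with the CRE in capitals.
Gas5 promoter: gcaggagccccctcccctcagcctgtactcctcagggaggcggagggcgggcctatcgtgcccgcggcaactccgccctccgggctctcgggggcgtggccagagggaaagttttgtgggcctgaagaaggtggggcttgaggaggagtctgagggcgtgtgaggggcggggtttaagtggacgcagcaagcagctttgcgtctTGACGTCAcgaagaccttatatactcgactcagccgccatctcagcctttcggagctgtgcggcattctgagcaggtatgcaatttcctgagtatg
These letters describe the sequence, and binding of any factor there was not measured in these libraries.

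Malat1 lies at chr19:5795690-5802671 on the minus strand and is a single-exon RNA of 6981 counted bases. Neat1 (chr19:5842296-5845480, minus strand, 3184 bases) was represented by a model of its short form, and RefSeq also lists a transcript of 20771 bases, whose further part was not counted. Gas5 (chr1:161035166-161038537, plus strand) was counted over 2550 bases, whereas the 8 spliced RefSeq transcripts hold 282 to 550 bases in 6 to 12 exons, so that its RPKM is spread over intron sequence and is not a level of the spliced RNA. Snhg1 (chr19:8723487-8726326, plus strand) has 10 exons and 466 counted bases. Snhg3 (chr4:132351933-132353686, minus strand) and Snhg12 (chr4:132308678-132311024, plus strand) have 434 and 601 bases. Snhg5 (chr9:88521053-88522897, minus strand) has 1005 bases, Snhg6 (chr1:9942025-9944118, minus strand) has 403, and Snhg8 (chr3:123507552-123508336, minus strand) is a single exon of 784 bases that contains the model of Snora24.

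Levels differed widely between the genes on the RPKM scale. In iBMDMs the median over 8 libraries was 279 RPKM for Malat1, 116 for Neat1, 53.8 for Gas5, 39.6 for Snhg1, 32.1 for Snhg6, 17.5 for Snhg3, 14 for Snhg8, 13.5 for Snhg5 and 12.3 for Snhg12. The ranges of Malat1, Neat1 and Gas5 did not overlap each other, whereas Gas5 overlapped Snhg1, and among the 6 Snhg genes only the ranges of Snhg1 and Snhg5 (22.2 to 65.4 and 8.80 to 22.1 RPKM) stood apart. Malat1 stood between rank 61 and rank 230 of all models, and Neat1 between rank 338 and rank 735. In TGEMs the order changed: Neat1 led with a median of 110 RPKM over 5 libraries, followed by Malat1 at 58.8, and every host gene had a median of 11.1 RPKM or less. The reads behind a value followed from level, length and depth: in the 8 iBMDM libraries Malat1 rested on 1985 to 34195 reads and Snhg3 on 7 to 135.

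**Figure D1:**
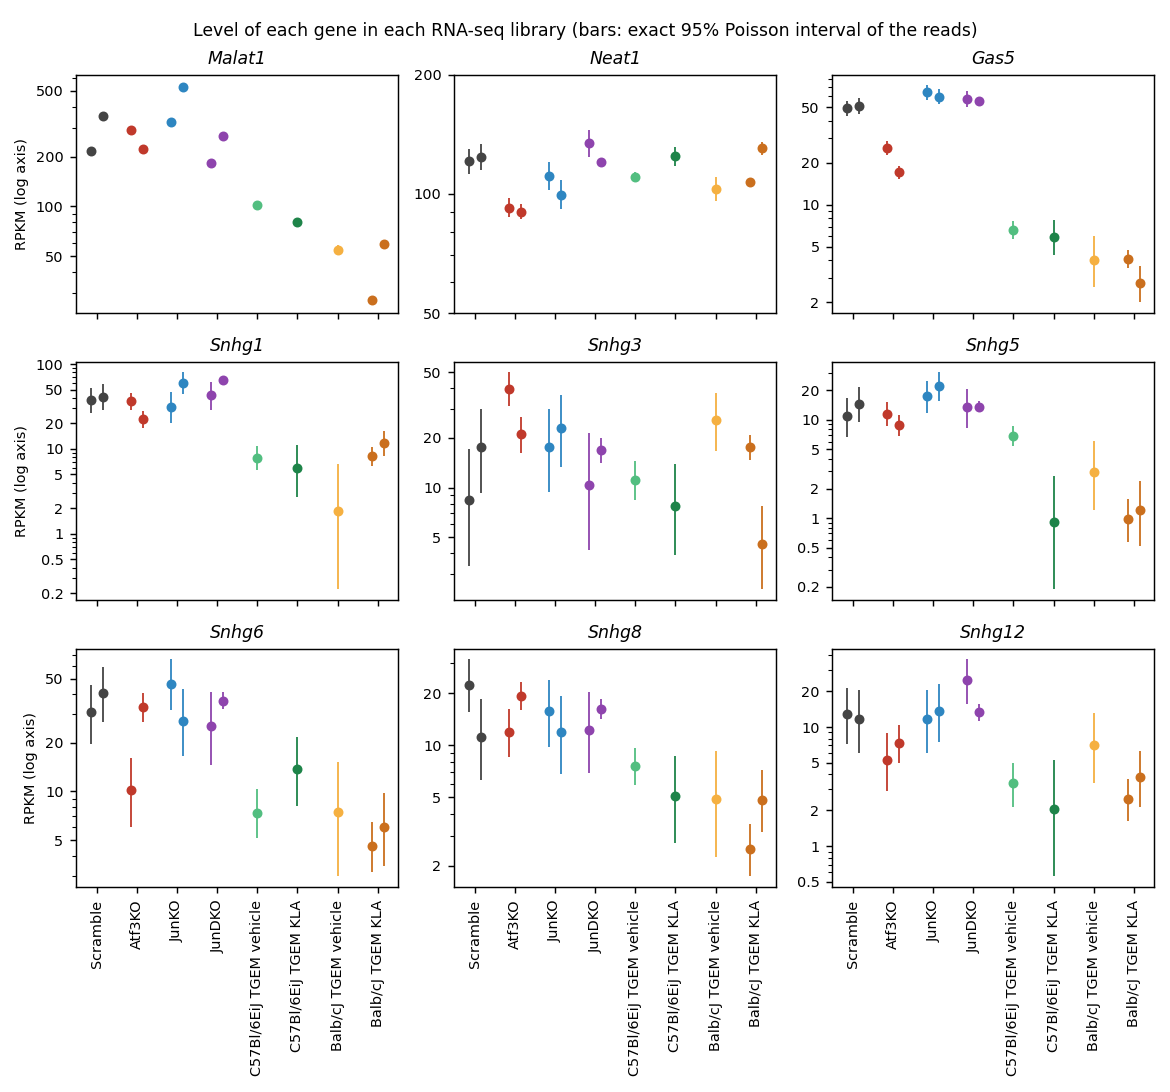
RPKM (log axis, with its own range in each panel) of the 9 genes in each of the 13 libraries, by group; bars are exact 95% Poisson intervals of the reads, which are narrower than the points for Malat1. Gas5 sits at 17.1 and 25.7 RPKM in the Atf3KO libraries, between 49.4 and 63.9 in the other iBMDM libraries and between 2.74 and 6.60 in TGEMs, while Neat1 stays between 90.1 and 134 throughout.

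The first comparison asked which of these RNAs depend on ATF3 in resting iBMDMs. In the libraries labelled Atf3KO, Gas5 and Snhg12 were lower than in Scramble and Snhg3 was higher, and the other 6 genes did not pass the test (limma-trend on log2(RPKM + 1), Benjamini-Hochberg adjusted p under 0.05 over 10691 models). Of all models tested 20.6% were lower and 20.7% were higher, so 2 lower and 1 higher of 9 is close to the share among all genes. The median log2 fold change of the 9 genes was −0.42, against 0.05 for all models tested, and 8 of the 9 values were negative. With a GC correction those of Malat1, Snhg1, Snhg5 and Snhg8 turned positive, so this lean to lower values depended on the processing.

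Gas5, the host of several box C/D snoRNAs and a growth-arrest-associated RNA, measured 25.7 and 17.1 RPKM in the Atf3KO libraries. Scramble gave 49.4 and 51.6 RPKM, JunKO gave 63.9 and 59.7, and JunDKO gave 57.6 and 56.0. Both Atf3KO libraries lay below all 6 others. The group mean was 21.4 ± 6.05 RPKM in Atf3KO against 50.5 ± 1.54 in Scramble (SD, n = 2 each). The log2 fold change was −1.23 ± 0.21 (SE; limma adjusted p = 0.00362), and this call held in all 15 alternatives, with log2 fold changes of −1.51 to −0.95. Against JunKO the log2 fold change was −1.51 ± 0.21 (limma adjusted p = 0.00222) and against JunDKO −1.39 ± 0.21 (limma adjusted p = 0.00179), and both calls also held in all 15 alternatives. The comparisons share the Atf3KO libraries.

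Of the 9 genes, only Gas5 had a model that started on the other strand within 5000 bases of its own start. The nearest such model was Zbtb37, whose start lies 907 bases from that of Gas5. It had 10 and 8 reads in Scramble, 10 and 4 in JunKO, 9 and 82 in JunDKO, and 0 in both Atf3KO libraries. Of 541 models with a Scramble mean within a factor of 1.25 of its 1.27 RPKM, 31.8% also had no read in both Atf3KO libraries, against 2.2% in both JunKO libraries. Absence of reads was therefore common among low models of the Atf3KO libraries and is not particular to Zbtb37.

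Snhg12, a host of H/ACA and C/D snoRNAs, measured 5.30 and 7.36 RPKM in the Atf3KO libraries, below the 12.9 and 11.7 of Scramble. It measured 11.7 and 13.6 in JunKO and 24.6 and 13.4 in JunDKO, so both Atf3KO libraries were the lowest of the 8. The log2 fold change over Scramble was −0.87 ± 0.29 (SE; limma adjusted p = 0.0449) and rested on 12 to 32 reads a library. The test no longer passed under 9 of 15 alternatives, and leaving out any 1 library of either group was enough. Against JunKO the log2 fold change was −0.91 ± 0.29 (limma adjusted p = 0.0443), which also failed under 9 of 15 alternatives, each library left out included. Against JunDKO it was −1.40 ± 0.29 (limma adjusted p = 0.00729), and it failed without JunDKO replicate 1 (−0.98, limma adjusted p = 0.0514).

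Snhg3 moved the other way. It measured 39.8 and 21.0 RPKM in the Atf3KO libraries and 8.36 and 17.5 in Scramble, where the values came from 7 and 13 reads. JunKO gave 17.6 and 22.9 RPKM and JunDKO 10.4 and 16.9, so Atf3KO replicate 2 lay below JunKO replicate 2. The log2 fold change over Scramble was 1.19 ± 0.41 (SE; limma adjusted p = 0.0490), and it failed under 9 of 15 alternatives. Without Scramble replicate 1 it was 0.70 (limma adjusted p = 0.264) and without Atf3KO replicate 1 it was 0.74 (limma adjusted p = 0.237). Against JunKO and JunDKO the difference did not pass, with 95% confidence intervals of −0.44 to 1.46 and 0.13 to 2.02 on the log2 scale (limma adjusted p = 0.352 and 0.0679).

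Neat1 measured 92.2 and 90.1 RPKM in the Atf3KO libraries, the lowest of the 8 iBMDM libraries, against 121 and 124 in Scramble. JunKO gave 111 and 99.5 RPKM and JunDKO 134 and 120. Over Scramble the log2 fold change of Neat1 was −0.42 ± 0.16 (SE; 95% interval −0.78 to −0.06) and did not pass (limma adjusted p = 0.0624), although it passed in 5 of 15 alternatives. Against JunDKO the log2 fold change was −0.47 ± 0.16 and passed (limma adjusted p = 0.0427), but it failed under 7 of 15 alternatives, including leaving out any 1 of the 4 libraries. All models together had a median of −0.15 in that comparison.

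Malat1, Snhg1, Snhg5, Snhg6 and Snhg8 did not differ detectably between Atf3KO and Scramble. Malat1 measured 292 and 222 RPKM against 217 and 351, a log2 fold change of −0.11 with a 95% interval of −0.87 to 0.64. Snhg6 was the most uneven, at 10.2 and 33.3 RPKM in the Atf3KO libraries against 30.9 and 40.6 in Scramble (log2 fold change −0.90, 95% interval −2.03 to 0.24). Without Atf3KO replicate 1 the Snhg6 value was −0.09, and without Atf3KO replicate 2 it was −1.71 and passed (limma adjusted p = 0.0241). For Snhg1, with 36.6 and 22.2 RPKM against 37.8 and 41.4, the interval was −1.28 to 0.37. For Snhg8, with 11.9 and 19.4 RPKM against 22.5 and 11.2, it was −0.88 to 0.76. Snhg5, with 11.5 and 8.80 RPKM against 10.8 and 14.5, gave −0.82 to 0.24 against Scramble. Against JunKO, where it measured 17.5 and 22.1 RPKM, Snhg5 was lower in Atf3KO by a log2 fold change of −0.90 ± 0.23 (SE; limma adjusted p = 0.0193). That difference did not pass without Atf3KO replicate 2 (limma adjusted p = 0.0862) or without JunKO replicate 2 (limma adjusted p = 0.126).

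In all, 3 of the 9 genes were lower in Atf3KO than in JunKO (Gas5, Snhg5 and Snhg12), where 18.5% of models were lower, and 3 were lower than in JunDKO (Gas5, Neat1 and Snhg12), where 25.9% were. None of the 9 passed as higher in either. With the further limits that the study set, on fold change (2-fold) and level (16 RPKM), 2 of the 9 genes remained in Atf3KO against Scramble (Gas5 and Snhg3). Of all models 12.5% did. The study does not say in which group its RPKM limit applied, and here the mean of either group had to reach it. Atf3KO replicate 2 carries a later date in its title than the other 7 iBMDM libraries, and the part of date, of fewer models with reads and of base composition in these results was not tested. Across models the Atf3KO fold change over Scramble correlated with GC content (Spearman's rho 0.50, a description over genes that share libraries). The 9 models held 41.2% to 51.2% GC. For Gas5, whose counted model was not in the RefSeq release, the GC content was that of its longest RefSeq transcript (550 bases). After a GC correction the values of Malat1, Snhg1, Snhg5 and Snhg8 changed sign (0.46, 0.09, 0.08 and 0.30). Gas5, Snhg3 (1.88) and Snhg12 (−0.84) still passed and Neat1 (−0.51, limma adjusted p = 0.00968) passed too.

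**Figure D2:**
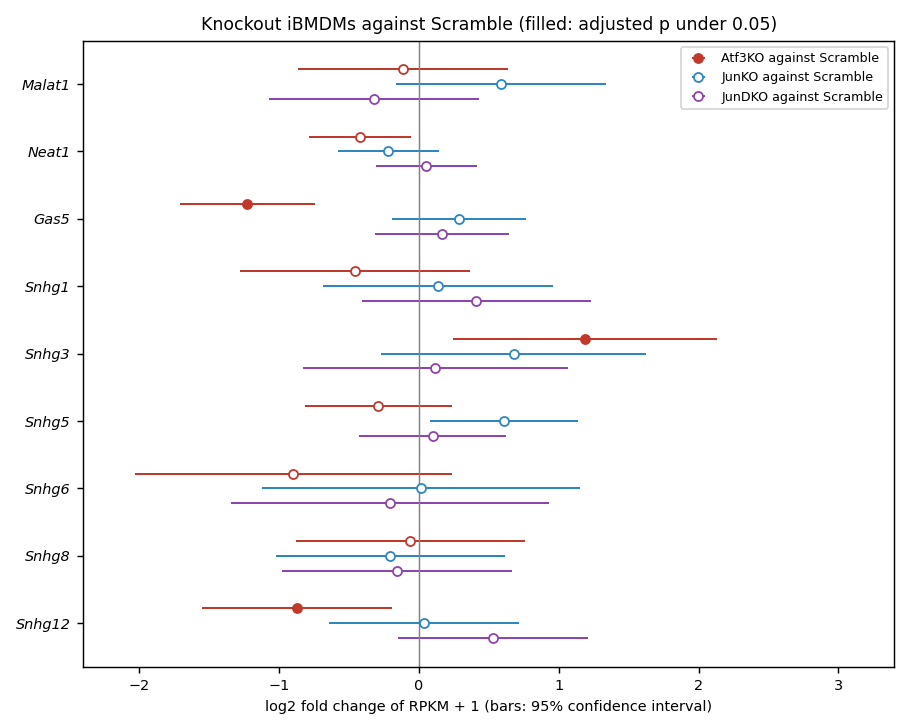
Log2 fold change of RPKM + 1 over Scramble (horizontal axis) for each of the 9 genes in Atf3KO, JunKO and JunDKO iBMDMs; bars are 95% confidence intervals from limma, and filled points passed an adjusted p of 0.05. The filled points are Gas5 (−1.23), Snhg12 (−0.87) and Snhg3 (1.19), all in Atf3KO.

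The Jun and JunD comparisons asked the same of the other AP-1 factors, and none of the 9 genes passed in either. In JunKO 30 of 10691 models passed (0.281%), and 842 had an unadjusted p under 0.05. Malat1 measured 326 and 527 RPKM in JunKO against 217 and 351 in Scramble. Its log2 fold change was 0.59, with a 95% interval of −0.16 to 1.34 and values that overlapped between the groups. Snhg5 measured 17.5 and 22.1 RPKM against 10.8 and 14.5, without overlap. Its log2 fold change of 0.61 (95% interval 0.08 to 1.13) had an adjusted p of 0.534 by limma. limma-voom on the recovered reads also called 0 of the 9 genes.

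In JunDKO 11.7% of models passed and the median log2 fold change of all models was 0.23. Snhg12 measured 24.6 and 13.4 RPKM in JunDKO against 12.9 and 11.7 in Scramble, a log2 fold change of 0.53 (95% interval −0.15 to 1.21). Malat1 measured 183 and 266 RPKM against 217 and 351, with a log2 fold change of −0.32 (95% interval −1.07 to 0.43). Gas5 gave 0.17, with an interval of −0.31 to 0.65. Between JunDKO and JunKO, where 8.14% of models passed, 0 of the 9 did, and Malat1 had the largest difference, at 183 and 266 RPKM against 326 and 527 without overlap (−0.91 ± 0.33 SE, limma adjusted p = 0.135). With a GC correction Malat1 was −1.05 and passed (limma adjusted p = 0.0195).

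Proteins and hosts of the same pathways were counted in the Atf3KO comparison from fixed lists. Of 8 core proteins of snoRNA particles, 4 were lower and 1 was higher, with a median log2 fold change of −0.58. Fbl (fibrillarin, the methyltransferase of C/D particles) was at 0.88 ± 0.97 RPKM in Atf3KO against 3.81 ± 0.35 in Scramble (SD, n = 2 each; log2 fold change −1.46, limma adjusted p = 0.0293). Nhp2l1, also called Snu13, was at 5.62 ± 2.04 against 14.1 ± 4.08 RPKM (−1.20, limma adjusted p = 0.0248). Nop10, a protein of H/ACA particles, was higher, at 85.6 ± 14.3 against 41.6 ± 7.05 RPKM (1.02, limma adjusted p = 0.00714). These shares stand beside 20.6% lower and 20.7% higher among all models.

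Of 13 protein-coding snoRNA hosts, 3 were lower and 1 was higher. Eif4a2, a translation initiation helicase, was at 28.6 ± 10.5 against 75.2 ± 4.33 RPKM (log2 fold change −1.41, limma adjusted p = 0.00367). Wdr43, a factor of ribosome assembly, was at 23.2 ± 2.50 against 52.1 ± 1.25 RPKM (−1.14, limma adjusted p = 0.00419). Nop56, which is on both lists, was at 51.3 ± 2.07 against 82.0 ± 10.6 RPKM (−0.66, limma adjusted p = 0.0216).

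Of 13 other noncoding hosts, 11 were in the table and 6 passed the filter of a mean of at least 1 RPKM. Snhg20 was higher, at 64.3 and 88.0 RPKM in the Atf3KO libraries against 6.07 and 19.5 in Scramble (log2 fold change 2.66 ± 0.47 SE, limma adjusted p = 0.00411). Snhg7 passed as lower, but it had 0 reads in both Atf3KO libraries and only 2 and 3 in Scramble. No fold is given for so few reads. The other 4 did not pass.

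Of 10 paraspeckle proteins, 2 were higher and 1 was lower. Nudt21, a subunit of the cleavage factor that directs poly(A) site choice, was at 13.2 and 5.64 RPKM in the Atf3KO libraries against 0.47 and 0 in Scramble (limma adjusted p = 0.00226), where too few reads lay on it for a fold. Matr3 was lower (−1.10, limma adjusted p = 0.0356) and Rbm14 higher (0.82, limma adjusted p = 0.0261). Of 10 factors of nonsense-mediated decay, 3 were higher and 1 was lower. Smg5 was at 22.4 ± 1.86 against 9.51 ± 1.30 RPKM (1.16, limma adjusted p = 0.00361), Smg9 was higher (1.55, limma adjusted p = 0.0109), and Upf2 was at 4.84 ± 2.02 against 14.3 ± 1.66 RPKM (−1.43, limma adjusted p = 0.00662). In JunKO none of the listed genes passed. In JunDKO 2 passed, Hspa8 as lower (−0.89, limma adjusted p = 0.0383) and Nudt21 as higher (limma adjusted p = 0.0477).

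The next comparison set primary vehicle TGEMs beside Scramble iBMDMs, cells that also differ in immortalization, editing and title date, which cannot be told apart. Each vehicle TGEM group had 1 library, so the spread was taken from the groups with 2 libraries, the iBMDM groups and Balb/cJ KLA. The difference between the C57Bl/6EiJ and Balb/cJ vehicle libraries therefore did not enter these p-values. Of the 9 genes, 7 were lower in TGEMs and none was higher, while 33.7% of 10929 models were lower. The 9 genes had a median log2 fold change of −1.28, against −0.32 for all models. Fold changes of all models correlated with GC content here too (Spearman's rho 0.33, over genes), and with a GC correction 5 of the 9 genes passed, with smaller differences for Malat1 (−1.20), Snhg1 (−2.35) and Snhg6 (−1.48). Neat1 and Snhg3 did not pass. The markers of B cells, mast cells and mesothelial or fibroblast cells given above were higher in TGEMs, and their part in these results was not tested.

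Gas5 and Snhg1 had differences of similar size, the largest of the 9 genes, and their order turned between alternatives. Gas5 measured 6.60 RPKM in the C57Bl/6EiJ vehicle library and 4.02 in the Balb/cJ one, against 49.4 and 51.6 in Scramble, a log2 fold change of −3.06 ± 0.23 (SE; limma adjusted p = 2.12e-05). All 5 TGEM libraries, at 2.74 to 6.60 RPKM, lay below all 8 iBMDM libraries, Atf3KO included. Snhg1 measured 7.90 and 1.83 RPKM against 37.8 and 41.4 (log2 fold change −3.01 ± 0.37, limma adjusted p = 0.000267). The 1.83 rested on 2 reads, with an exact 95% Poisson interval of 0.222 to 6.62 RPKM. Both calls held in all 15 alternatives, but the Snhg1 value was −2.19 without the Balb/cJ and −3.84 without the C57Bl/6EiJ vehicle library.

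Snhg6 measured 7.40 and 7.42 RPKM in vehicle TGEMs against 30.9 and 40.6 in Scramble (log2 fold change −2.11 ± 0.49, limma adjusted p = 0.00717), and it failed without Scramble replicate 2 (limma adjusted p = 0.0502). Snhg5 measured 6.89 and 2.97 RPKM against 10.8 and 14.5 (−1.28 ± 0.23, limma adjusted p = 0.00195), and without the Balb/cJ vehicle library it was −0.78 (limma adjusted p = 0.0505). Snhg8 measured 7.61 and 4.90 RPKM against 22.5 and 11.2 (−1.25 ± 0.39, limma adjusted p = 0.0271), but it failed under 8 of 15 alternatives. Snhg12 measured 3.36 and 7.10 RPKM against 12.9 and 11.7 (−1.16 ± 0.31, limma adjusted p = 0.0131), but it failed under 4. The values of these 4 genes did not overlap between the groups, but the share of all models without overlap was not counted.

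Snhg3 was the exception among the hosts, at 11.1 RPKM in the C57Bl/6EiJ and 25.6 in the Balb/cJ vehicle library against 8.36 and 17.5 in Scramble. Its log2 fold change of 0.45 had a 95% interval of −0.87 to 1.77, and without the Balb/cJ vehicle library it was −0.12. The study's further limits of 2-fold and 16 RPKM left 5 of the 9 genes, Malat1, Gas5, Snhg1, Snhg6 and Snhg8, beside 19.9% of models. Without the Balb/cJ vehicle library 4 of the 9 passed in place of 7.

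The nuclear pair separated. Malat1 measured 102 and 54.3 RPKM in vehicle TGEMs against 217 and 351 in Scramble (log2 fold change −1.87 ± 0.41, limma adjusted p = 0.00585), and without the Balb/cJ vehicle library it was −1.42 (limma adjusted p = 0.0503). Neat1 measured 110 and 103 RPKM against 121 and 124 (log2 fold change −0.20, 95% interval −0.59 to 0.19). The sign of the Neat1 value turned, to 0.11 with equal library medians and to 0.12 with a GC correction. Within each library, Malat1 was 1.37 to 5.30 times Neat1 in the 8 iBMDM libraries and 0.254 to 0.927 times Neat1 in the 5 TGEM libraries, without overlap, given as a description on the RPKM scale.

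**Figure D3:**
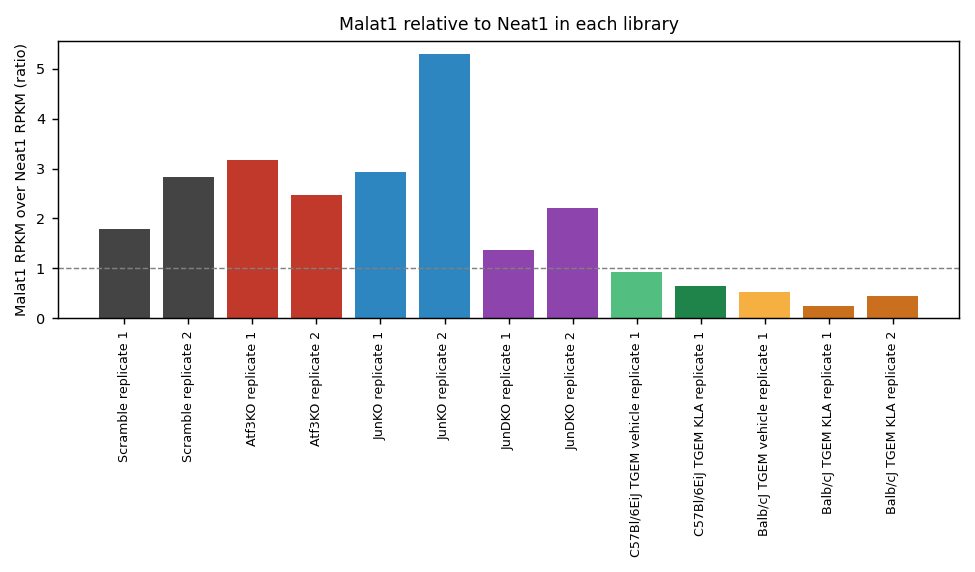
Malat1 RPKM divided by Neat1 RPKM (vertical axis, from 0) in each of the 13 libraries; each bar is 1 library and the dashed line marks equal levels. All 8 iBMDM bars stand above the line, at 1.37 to 5.30, and all 5 TGEM bars below it, at 0.254 to 0.927.

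The listed proteins and hosts were counted in vehicle TGEMs too, beside 33.7% of all models lower and 16.2% higher. Of the 13 protein-coding hosts 12 were lower, with a median log2 fold change of −2.08, and of the 8 snoRNA particle proteins 7 were, with −1.94. Dkc1, the pseudouridine synthase of H/ACA particles, was at 3.15 and 3.37 RPKM in the vehicle TGEM libraries against 52.6 ± 4.46 in Scramble (SD, n = 2; log2 fold change −3.65, limma adjusted p = 1.83e-05). Nop56 was at 6.81 and 5.22 against 82.0 ± 10.6 RPKM (−3.57, limma adjusted p = 6.28e-06). Nop58 had a log2 fold change of −3.13 (limma adjusted p = 2.12e-05) and Hspa8, a chaperone, −3.0 (limma adjusted p = 0.00347).

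Of 10 paraspeckle proteins 9 were lower, led by Tardbp at 7.61 and 6.25 against 39.9 ± 7.35 RPKM (−2.36, limma adjusted p = 4.47e-05) and Pspc1 (−1.98, limma adjusted p = 0.000983). Neat1, the RNA these proteins assemble on, did not pass in the same comparison. Of 6 other noncoding hosts tested 3 were lower, Snhg4 (−1.85, limma adjusted p = 0.00521), 1500012F01Rik, also called Zfas1 (−1.36, limma adjusted p = 0.0194), and Snhg20 (−1.32, limma adjusted p = 0.0411). Of 10 decay factors 2 were lower, Smg1 (−1.13, limma adjusted p = 0.00502) and Upf3a (−0.91, limma adjusted p = 0.0249), and 1 was higher, Smg9 (1.18, limma adjusted p = 0.0250).

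The KLA comparison asked what 1 h of TLR4 stimulation does in TGEMs. None of the 9 genes passed, where 1.53% of 10357 models did (limma, 158 models, and 1553 with an unadjusted p under 0.05). Their median log2 fold change was −0.40 and that of all models −0.15. limma-voom on recovered reads also called 0.

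Snhg5 came closest. It measured 6.89 RPKM in the vehicle and 0.92 in the KLA library of C57Bl/6EiJ, and 2.97 in the vehicle against 0.98 and 1.21 in the KLA libraries of Balb/cJ. All 3 KLA libraries lay below both vehicle libraries. The log2 fold change was −1.40 ± 0.34 (SE; 95% interval −2.21 to −0.60, limma adjusted p = 0.135), and it rested on 3 to 17 reads in the KLA libraries. It passed when all 13 libraries shared the fit (limma adjusted p = 0.0169). For the pairs of equal title date the log2 difference was −2.04 in C57Bl/6EiJ and −1.0 in Balb/cJ.

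Snhg12 was lower in each KLA library than in the vehicle library of its strain, at 2.05 against 3.36 RPKM and at 2.51 and 3.79 against 7.10 (log2 fold change −0.78, 95% interval −1.44 to −0.13, limma adjusted p = 0.269). Snhg3 was also lower in each, at 7.79 against 11.1 and at 17.5 and 4.55 against 25.6 RPKM (−0.99, 95% interval −2.19 to 0.20). Snhg8 followed at 5.10 against 7.61 and 2.52 and 4.85 against 4.90 RPKM (−0.43, 95% interval −1.12 to 0.25).

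Snhg1 and Snhg6 did not move the same way in the 2 strains. Snhg1 measured 5.94 RPKM with KLA against 7.90 with vehicle in C57Bl/6EiJ, and 8.21 and 11.7 against 1.83 in Balb/cJ. Snhg6 measured 13.7 against 7.40 RPKM in C57Bl/6EiJ, and 4.60 and 6.03 against 7.42 in Balb/cJ. The strain-adjusted log2 fold changes, 0.95 (95% interval −0.20 to 2.10) and 0.11 (−0.67 to 0.88), averaged opposite values and did not pass.

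Malat1 measured 79.9 RPKM with KLA against 102 in C57Bl/6EiJ, and 27.2 and 58.8 against 54.3 in Balb/cJ (log2 fold change −0.40, 95% interval −1.24 to 0.45). The Balb/cJ replicates thus lay on either side of their vehicle library. Neat1 measured 125 against 110 RPKM, and 107 and 130 against 103, higher in all 3 KLA libraries by at most 0.34 on the log2 scale (0.19, 95% interval −0.42 to 0.79). Gas5 measured 5.91 against 6.60 and 4.09 and 2.74 against 4.02 RPKM (−0.17, 95% interval −0.78 to 0.43).

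**Figure D4:**
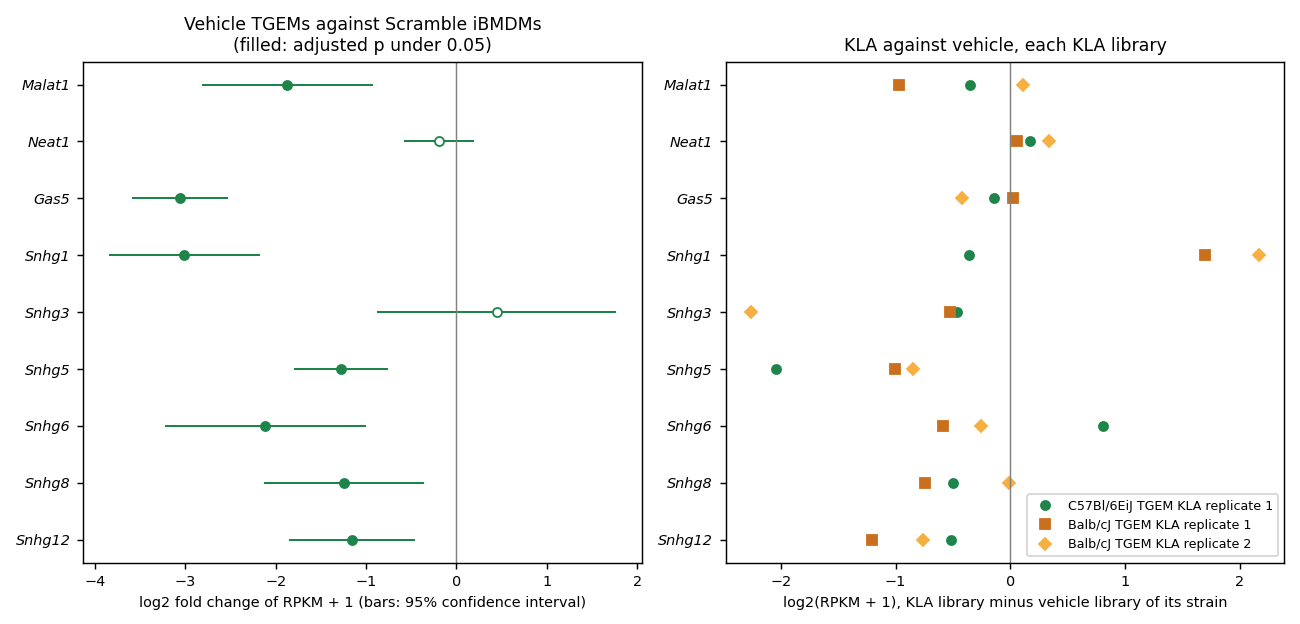
Left: log2 fold change of RPKM + 1 of vehicle TGEMs over Scramble iBMDMs for the 9 genes, with 95% confidence intervals and filled points where the adjusted p was under 0.05; right: log2(RPKM + 1) of each KLA library minus the vehicle library of its strain. The 7 filled points lie between −3.06 and −1.16, and on the right Snhg5 is at −2.04, −1.0 and −0.85 while Snhg1 is at −0.36, 1.70 and 2.17.

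Between strains, none of the 9 genes passed (2.31% of models did), and strain and date cannot be told apart. Malat1 had the largest difference, at 102 and 79.9 RPKM in the C57Bl/6EiJ libraries and 54.3, 27.2 and 58.8 in the Balb/cJ ones, without overlap (log2 fold change of Balb/cJ over C57Bl/6EiJ −0.95, 95% interval −1.79 to −0.10, limma adjusted p = 0.194). Gas5, at 6.60 and 5.91 against 4.02, 4.09 and 2.74 RPKM, did not overlap either (−0.64, 95% interval −1.24 to −0.03, limma adjusted p = 0.213). The fold changes of all models correlated with GC content in this comparison (Spearman's rho −0.45, over genes).

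The snoRNAs themselves were barely seen. The table held 8 snoRNA models inside the host genes on the same strand: Snord47 in Gas5, Snord22 in Snhg1, Snord87 in Snhg6, Snora24 in Snhg8, and Snora44, Snora16a, Snord99 and Snora61 in Snhg12. Over all 8 iBMDM libraries they had 0 to 33 reads, most for Snord22 with 33 and Snord47 with 21. Snord87 and Snord99 had 0 reads in all 13 libraries. The libraries were selected for poly(A), and reads of a host intron and of its snoRNA cannot be told apart in these counts.

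The genes whose levels were most like those of the 3 most abundant members over the 8 iBMDM libraries were ranked by Pearson's r of log2(RPKM + 1) among 4134 models of at least 200 bases and 16 RPKM. For Gas5 they were Lactb2 (0.99), Nras (0.99) and Mmadhc (0.99), for Neat1 Nsf (0.98), Sptan1 (0.98) and Rab7b (0.96), and for Malat1 Scfd1 (0.94), Ypel5 (0.92) and Ufd1l (0.91). Spearman's rho for Lactb2, Nras and Mmadhc was 0.952, 0.905 and 0.738, and Gas5 itself was lowest in the Atf3KO libraries. The points share libraries in pairs of replicates, and r and rho are given as a description only.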

How the data were processed

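PolyA RNA-seq of 13 of 17 samples was used, leaving 4 GRO-seq samples aside as not analysed here. The authors deposited RPKM values per gene model. Per the file headers they came from HOMER (analyzeRepeats over exons, genes condensed, no strand option named) on mm10, and the submitters' processing notes name STAR and HOMER without versions. The authors aligned Balb/cJ reads to a genome of that strain. Without a strand setting, reads of a gene and of an antisense partner may not be told apart.

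RPKM multiplied by exonic length moves in steps of 1 read, so depth and whole reads were recovered: 100% of low values (up to 50 reads) came out whole, with a tolerance of 0.05 read or the RPKM decimals. Poisson intervals cover counting error only. log2(RPKM + 1) was fitted with limma-trend for models averaging 1 RPKM or more across the fitted libraries: 8 iBMDM libraries in 4 groups (4 residual degrees of freedom), 5 TGEM libraries with treatment and strain (2), and all 13 in 8 groups (5). P-values are two-sided, adjusted by Benjamini-Hochberg over all models of a comparison. The pseudocount of 1 understates fold changes of low genes. The lists named at most 3 genes each, those with the largest absolute log2 fold change among those that passed, and the 9 members were all named. One gene that this rule names is not reported here. All members and lists were chosen with earlier results of these data known. Scripts were tested on simulated data. Alternatives were other pseudocounts and filters, equal library medians, quantile normalization, a GC correction (spline with 5 degrees of freedom), limma-voom on recovered reads, array weights, replicate blocks and leaving out each library. Replicate numbers of Balb/cJ KLA libraries follow accession order. Software was limma 3.58.1 in R 4.3.3, with scipy 1.17.1, pandas 2.3.3 and matplotlib 3.10.9 in Python 3.11.15. The authors tested counts with edgeR, which was not used here because the deposited values are RPKM.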

Additional observations from a re-analysis of the deposited data

Results flagged for a closer look

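In 2 of the 9 genes every KLA library of one strain lay on the opposite side of its vehicle library from every KLA library of the other strain. The difference between strains was not tested. The share of all models with this pattern was not counted, so 2 of 9 is not a result about these genes. For Snhg1 the log2(RPKM + 1) effect of KLA in C57Bl/6EiJ (−0.36) minus that in Balb/cJ (1.70 and 2.17) was −2.30, and the Balb/cJ vehicle value rested on 2 reads. For Snhg6 the effect in C57Bl/6EiJ (0.81) minus that in Balb/cJ (−0.59 and −0.26) was 1.23, with 7 reads in the Balb/cJ vehicle library. In C57Bl/6EiJ there was 1 library for each treatment.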

How the results depend on the processing

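Gas5 kept its calls in Atf3KO against Scramble, JunKO and JunDKO and in vehicle TGEMs against Scramble in all 15 alternatives of each. The number of the 9 genes that passed moved as follows. From 3 in Atf3KO against Scramble it fell to 2 with a pseudocount of 0.1, a pseudocount of 5 or no filter on low values. From 3 in Atf3KO against JunKO it fell to 2 with a pseudocount of 5, no filter, limma-voom or array weights. From 3 in Atf3KO against JunDKO it fell to 2 with array weights. In Atf3KO against Scramble it went from 3 to 1 with limma-voom, array weights or the replicate block, to 4 with the GC correction, and to 1 to 3 without 1 library (1 without Scramble replicate 1 or Atf3KO replicate 1). In Atf3KO against JunKO it was 4 with the GC correction and 1 to 2 without 1 library (1 without JunKO replicate 2), and against JunDKO it was 5 with the GC correction, 4 with limma-voom and 1 to 3 without 1 library (1 without JunDKO replicate 1). In JunDKO against JunKO 2 passed with the GC correction, in KLA against vehicle 1 with all 13 libraries in the fit, and in TGEMs against Scramble 4 with the C57Bl/6EiJ vehicle library alone and 4 to 6 without 1 library. The cause was not tested. Without 1 library each, single genes also moved across 0, so their lowest and highest values are given. Values that turned in sign in Atf3KO against Scramble were those of Malat1 (0.46 with the GC correction, −0.46 to 0.23 without 1 library), Snhg1 (0.093, GC correction), Snhg5 (0.076, GC correction) and Snhg8 (0.30 with the GC correction, −0.53 to 0.41 without 1 library). Malat1 turned in JunDKO against Scramble (−0.67 to 0.024 without 1 library). For KLA, Snhg1 turned without the Balb/cJ vehicle library (range −0.36 to 1.94) and Snhg6 without either C57Bl/6EiJ library (range −0.42 to 0.81). In TGEMs against Scramble, Neat1 turned with equal library medians (0.11) and the GC correction (0.12), and Snhg3 with the C57Bl/6EiJ vehicle library alone (−0.12) and without Scramble replicate 1 (range −0.12 to 1.01 without 1 library).

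The labels do not say that a replicate number marks a shared culture or day. Replicate differences correlated at 0.18 to 0.22 among Scramble, JunKO and JunDKO and at −0.21 to −0.12 with Atf3KO, whose replicate 2 has a later title date, so the numbers were not taken as pairs. With the replicate block 1, 0 and 0 genes passed against Scramble in Atf3KO, JunKO and JunDKO, 2 in Atf3KO against JunKO and 2 against JunDKO. With the Atf3KO numbers crossed, chosen after seeing the data, 4, 0 and 0 passed against Scramble, 5 in Atf3KO against JunKO, 5 against JunDKO and 1 (Malat1) in JunDKO against JunKO. A fit without the Atf3KO libraries, also added later, gave 7 in TGEMs against Scramble. Where a group was left with 1 library it was assumed to vary like the others. Few reads limit the short hosts, down to 2 reads for Snhg1 and 3 for Snhg5 in a library.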
